A study of Homo sapiens with 6 samples.

Results

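The genes described here are 10 genes of the YAP/TEAD arm of the Hippo pathway, taken by gene symbol from the 23152 genes of the count table: YAP1, TEAD1, TEAD4, CCN1, CCN2, ANKRD1, AMOTL2, AXL, LATS2 and AJUBA. All 10 were found, and all 10 were among the 14467 genes that passed the filter on low counts. They were compared between 3 vector samples and 3 samples overexpressing RNF112 (oeRNF112) of T24 cells, an established human bladder cancer line. RNF112 is a RING-type E3 ubiquitin ligase, and the series was made to look for genes downstream of it. The control samples are labelled as vector only, and no further treatment separates the groups in the labels. The sample protocol speaks of siRNA transfection, whereas the sample labels and the study describe an overexpression construct, and whether the sequenced cells were transiently transfected or a stable line is not given in the sources used here. Nothing states that replicates were separate cultures, so p-values measure the spread between these samples only.

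In the Hippo pathway, the kinases MST1/2 (genes STK4 and STK3) activate LATS1 and LATS2, which phosphorylate the coactivators YAP1 and TAZ (gene WWTR1) and keep them out of the nucleus. When the kinases are inactive, YAP1 and TAZ bind the TEAD transcription factors and switch on genes such as CCN1 (formerly CYR61), CCN2 (formerly CTGF) and ANKRD1. Several targets feed back on the pathway: LATS2 is itself a kinase of the cascade, and AMOTL2 holds YAP1 in the cytoplasm and at cell junctions. YAP1 activity is controlled mostly at the protein level, and mRNA counts do not show where the protein is.

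Sequencing gave between 40029547 and 41259569 counted reads per sample, so that depth differed little and a count of 0 allowed at most 0.0749 CPM, the usual depth-scaled count, in any sample, counting error only. RNF112 had 27, 19 and 24 counts in vector and 29753, 36963 and 31712 in oeRNF112, matching the labels. By edgeR's quasi-likelihood test with an adjusted p under 0.05 (Benjamini-Hochberg over all genes), 18.1% of the genes tested differed, 9.97% higher and 8.14% lower in oeRNF112. With library totals in place of TMM factors, 75.4% of the called genes were higher, against 55.0% here. The keratins KRT7, KRT8 and KRT18 and the mesenchymal gene VIM were abundant, at mean RPKM (CPM scaled by gene length) of 521, 604, 744 and 1961 in vector. UPK1A, UPK2, UPK3A and CDH1 stayed under 1 RPKM in every sample, so these uroplakins, which define the urothelium, and E-cadherin were near 0. Vector samples had 1804 to 2240 summed RPKM over the epithelial list against 1470 to 1709 for oeRNF112, and its part in the results was not tested. All 5 endothelial markers, 5 of 6 fibroblast markers and 4 of 6 leukocyte markers were also under 1 RPKM throughout. Their summed RPKM was at most 0.110 for the endothelial list in either group, between 1.55 and 2.01 in vector and 2.11 and 2.21 in oeRNF112 for the fibroblast list, and between 4.10 and 4.67 against 2.58 and 3.67 for the leukocyte list.

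The TEAD factors recognise the letters GGAATG, and YAP1, which has no DNA-binding domain of its own, reaches its targets through them. Read from the opposite strand of the DNA, the same site appears as CATTCC. The 250 bases before the annotated starts were searched on both strands in the RefSeq promoter table (GRCh38.p14), in which 7 of the 10 genes were found with 10 starts in all. TEAD1, TEAD4 and CCN1 were not matched. Of those 7 genes, 6 held at least one copy, each at a single start, so that 6 of the 10 windows held the letters. LATS2 held none. The shares that follow are per window and not per gene. Among all 35116 windows of the table, 11.9% held the letters, 0.940% held at least 2 copies and 0.0826% held at least 3. CCN2, with 3 copies on the gene's strand, is shown first because it is the gene among those 7 with the most copies. Its stretch begins 180 bases before the start (chr6:131951453-131951552, minus strand), printed 5′ to 3′ on the gene's strand as in all lines here, with the TEAD letters in capitals.
CCN2: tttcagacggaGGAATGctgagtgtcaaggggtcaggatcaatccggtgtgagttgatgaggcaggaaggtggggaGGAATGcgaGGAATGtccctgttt

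ANKRD1, the gene with the largest change among the 10, held 2 copies, at 220 and 128 bases before its start. The single copies of the other 4 genes are shown as 30 bases around the match, so that they can be read side by side.
ANKRD1 at 220 (chr10:90921290-90921319, minus strand): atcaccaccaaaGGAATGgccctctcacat
ANKRD1 at 128 (chr10:90921198-90921227, minus strand): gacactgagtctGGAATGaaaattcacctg
AMOTL2 at 69 (chr3:134374499-134374528, minus strand): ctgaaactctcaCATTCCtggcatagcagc
YAP1 at 162 (chr11:102110273-102110302, plus strand): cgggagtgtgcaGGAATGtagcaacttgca
AJUBA at 59 (chr14:22976884-22976913, minus strand): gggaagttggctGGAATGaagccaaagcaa
AXL at 212 (chr19:41226531-41226560, plus strand): cagactttgcacCATTCCactccctccgct

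AMOTL2, AJUBA and AXL each have 2 starts in the table, and the match lay at the downstream one. The second ANKRD1 stretch and those of AMOTL2 and AJUBA lie in annotated exons of GENCODE v29. In the search window, the AP-1 letters TGACTCA, held by 4.20% of all windows, and the CArG box bound by SRF, held by 1.16%, were in none of the 10 windows. The E-box CACGTG, held by 6.34%, was in the YAP1 window alone. These matches describe the letters only, since no binding was measured.

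The 10 genes lie on 9 chromosomes (RefSeq, GRCh38.p14). The factors are at chr11:102110447-102233424 on the plus strand (YAP1), chr11:12674421-12944737 on the plus strand (TEAD1) and chr12:2959397-3040676 on the plus strand (TEAD4). The secreted targets are at chr1:85580761-85583950 on the plus strand (CCN1) and chr6:131948176-131951372 on the minus strand (CCN2), and ANKRD1 is at chr10:90912096-90921087 on the minus strand. The regulators are at chr3:134355345-134375417 (AMOTL2), chr13:20973036-21061586 (LATS2) and chr14:22971177-22982551 (AJUBA), all on the minus strand, and AXL is at chr19:41219223-41261766 on the plus strand. In GENCODE v29, YAP1, CCN2 and AXL share 628, 195 and 67 exon bases with an antisense gene, and AJUBA shares 50 with a gene on its own strand. The strand setting of the counting is not given in the sources used here, so how reads in the antisense bases were counted is not known. How reads in the bases that AJUBA shares were assigned was not examined.

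Per length, the 10 mRNAs spanned more than 2 orders of magnitude, and their order was nearly the same in both groups. CCN1, a secreted matrix protein, was the highest at 138 ± 21.6 RPKM in vector (SD, n = 3), above 97.7% of the genes tested by its mean over all samples. AXL, a receptor tyrosine kinase, followed at 102 ± 5.10 RPKM. CCN2 stood at 38.9 ± 5.58, YAP1 at 30.5 ± 5.54 and TEAD4 at 27.4 ± 1.84 RPKM, and the ranges of CCN2 and YAP1 and of YAP1 and TEAD4 overlapped. AJUBA at 20.9 ± 1.07, AMOTL2 at 19.8 ± 0.975 and TEAD1 at 14.9 ± 3.88 RPKM lay below TEAD4 and above LATS2 without overlap, while AMOTL2 overlapped with both AJUBA and TEAD1. LATS2 was lower, at 4.26 ± 0.780 RPKM, and ANKRD1 was far below the rest at 0.490 ± 0.0356 RPKM. In oeRNF112 the 3 highest genes and the 2 lowest genes kept their places. AMOTL2 moved above AJUBA without overlap there, at 27.6 ± 2.68 against 18.9 ± 1.01 RPKM.

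**Figure D1:**
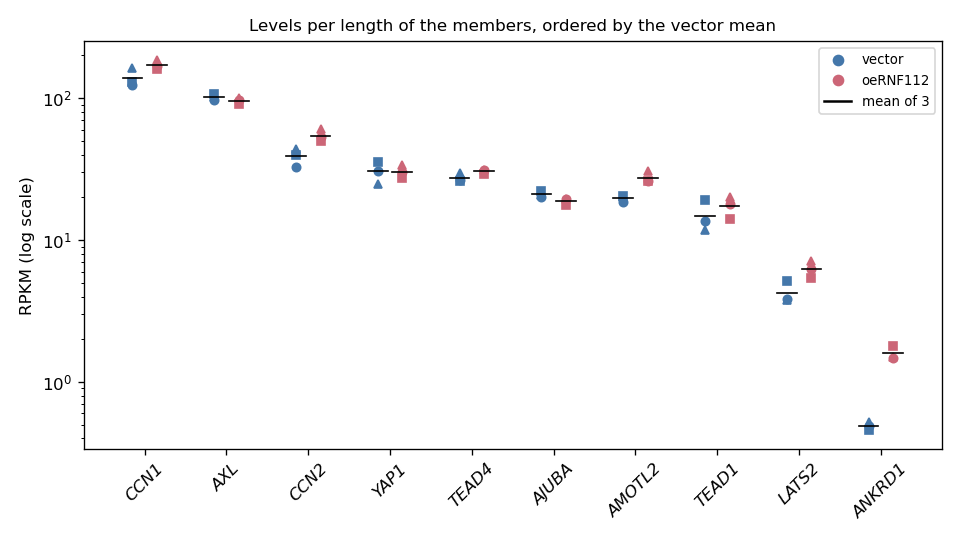
RPKM (log scale) of the 10 genes in each sample, ordered by the vector mean, with the mean of 3 samples as a bar and marker shapes for replicates 1 to 3. CCN1 and AXL lie above 90 RPKM in all samples, whereas ANKRD1 lies at 0.455 to 0.526 in vector and 1.48 to 1.81 in oeRNF112.

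The factors themselves showed no difference past the threshold. YAP1, the coactivator, had 200, 225 and 160 CPM in vector and 181, 168 and 199 CPM in oeRNF112 (TMM-normalized, as all CPM here). The groups overlapped widely, and vector held both the highest and the lowest sample. Its log2 fold change was -0.10 (95% interval -0.37 to 0.18, adjusted p = 0.627, edgeR's quasi-likelihood test). The estimate was 0.02 without vector replicate 2. TEAD1, a TEAD factor with a long transcript, had 135, 183 and 115 CPM in vector and 164, 130 and 181 CPM in oeRNF112. These values overlapped as well, with a log2 fold change of 0.13 (95% interval -0.25 to 0.51, adjusted p = 0.625 from the same test). Without vector replicate 3 it was -0.0047. TEAD4 lay between 45.6 and 53.2 CPM in vector and between 49.7 and 51.5 CPM in oeRNF112, with a log2 fold change of 0.06 (95% interval -0.15 to 0.26). These intervals include 0, and changes within them, down to -0.37 for YAP1 and up to 0.51 for TEAD1, were not excluded.

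Of the family relatives, WWTR1 was lower in oeRNF112, while the other TEADs did not pass the test. WWTR1, which encodes TAZ, had 136, 159 and 120 CPM in vector and 113, 102 and 108 CPM in oeRNF112. The groups did not overlap, and the log2 fold change came to -0.36 with a standard error of 0.110 (adjusted p = 0.0464 by edgeR's quasi-likelihood test). This call was close to the threshold and held in 5 of 17 other settings, being lost in 5 of the 6 fits that left out a sample, all but that without vector replicate 3. TEAD2 had a log2 fold change of -0.26 (adjusted p = 0.0924) and TEAD3 of 0.10 (adjusted p = 0.447) in the same test.

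Within families, shares of the summed RPKM do not depend on the scaling of a sample. They can still follow the gene length trend given below where relatives differ in length. The TEAD1 share ordered the samples of each group as the long genes did. YAP1 held 57.7%, 56.8% and 55.5% of the YAP1 and WWTR1 sum in vector and 59.9%, 60.6% and 63.1% in oeRNF112. The lowest oeRNF112 share exceeded the highest vector share, which gave p = 0.1 in a two-sided exact permutation test, the smallest that 3 against 3 samples allow (0.25 after adjustment over the 10 shares computed). TEAD4 was the largest of the 4 TEAD mRNAs per length, at 47.3% ± 4.42 of their sum in vector and 47.7% ± 1.69 in oeRNF112 (SD, n = 3). TEAD1 held 25.5% ± 5.58 and 27.0% ± 3.10, so both TEAD shares differed by less than the spread between samples. TEAD2 held 12.9% ± 0.867 in vector and 10.4% ± 1.18 in oeRNF112, without overlap and again at the smallest exact p of 0.1.

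Among the 7 targets and regulators, 4 were higher in oeRNF112: ANKRD1, LATS2, CCN2 and AMOTL2. Thus 4 of the 10 genes were called higher and 0 lower, where 9.97% and 8.14% of all genes tested were called in these directions. The 10 genes and the lists below were chosen with earlier results of these data known, so such shares are a description and not a test. The number called higher was 1 without vector replicate 1, 1 without oeRNF112 replicate 3 and 2 without oeRNF112 replicate 1. Over all genes tested, 702 of 14768, 913 of 14689 and 832 of 14701 were called higher in these fits, against 1442 of 14467 with all samples. With the replicate number as a block, 1 of the 10 genes was called higher, and 618 of the 14467 genes tested. The labels do not say whether the numbers pair the samples. At an unadjusted p under 0.05, AJUBA alone was lower, and DESeq2 called 1 of the 10 lower. Their log2 fold changes had a median of 0.17, against 0.0027 over all genes tested. In 6 of the 10 genes the TMM-normalized CPM of vector and oeRNF112 did not overlap, against 36.8% of all genes. Of these, 4 were higher and 2 lower in oeRNF112, against 18.9% and 17.9% of all genes. In bulk RNA, a change in RNA per cell and a change in the share of cells expressing a gene cannot be told apart.

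**Figure D2:**
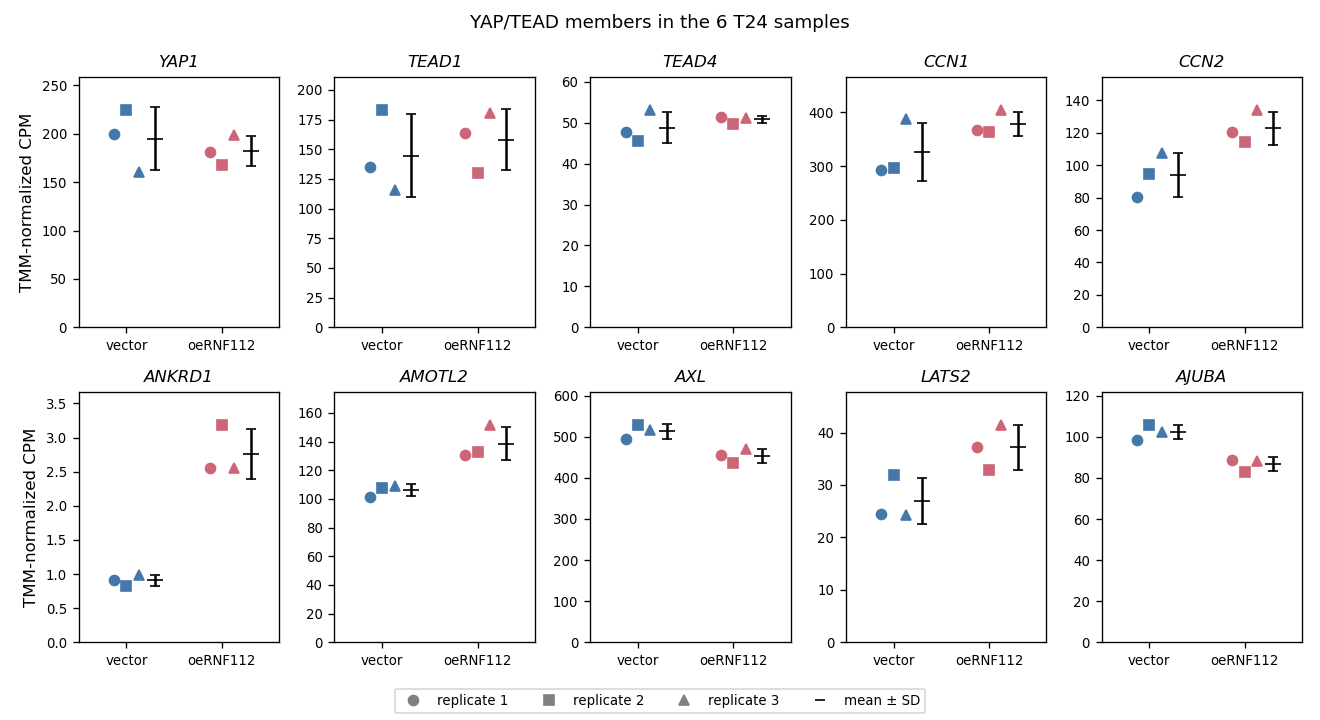
TMM-normalized CPM of each of the 10 genes in the 3 vector and 3 oeRNF112 samples, each panel on its own axis from 0, with marker shapes for replicates and the mean ± SD beside them. ANKRD1, AMOTL2, CCN2 and LATS2 show separate groups with oeRNF112 above vector, AXL and AJUBA separate groups with oeRNF112 below, whereas YAP1, TEAD1, TEAD4 and CCN1 overlap.

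ANKRD1, a nuclear ankyrin-repeat protein widely used as a YAP1 readout, had 36, 33 and 38 counts in vector and 106, 131 and 108 counts in oeRNF112. Every oeRNF112 sample held more than 2 times the count of any vector sample, although the gene was little expressed in both groups. The difference of 1.61 on the log2 scale (standard error 0.214), or 3.04 times the vector level, passed edgeR's quasi-likelihood test with an adjusted p of 0.00132 and lay above 98.4% of the genes tested. The call held in all 16 other settings, those without each sample included. On the log2(RPKM + 1) scale, which compresses low genes, the difference was 0.80.

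LATS2, the kinase that acts against YAP1, had 24.4, 32.0 and 24.3 CPM in vector and 37.2, 32.8 and 41.5 CPM in oeRNF112. The groups were separated only narrowly, by vector replicate 2 and oeRNF112 replicate 2. The log2 fold change came to 0.47 with a standard error of 0.134 (adjusted p = 0.0382 by edgeR's quasi-likelihood test). It was 0.61 without vector replicate 2, and the call was lost without vector replicate 1, vector replicate 3, oeRNF112 replicate 1 or oeRNF112 replicate 3, at values of 0.41, 0.40, 0.47 and 0.38. LATS1, its relative, had a log2 fold change of 0.16 (adjusted p = 0.614). LATS2 made up 67.7% ± 3.17 of the LATS1 and LATS2 sum per length in vector and 72.1% ± 2.34 in oeRNF112, and these shares overlapped.

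AMOTL2, an angiomotin-family scaffold, had 101, 108 and 109 CPM in vector and 131, 133 and 152 CPM in oeRNF112. The vector samples lay close together, and all 3 oeRNF112 samples were above them. The log2 fold change came to 0.38 with a standard error of 0.0898 (adjusted p = 0.0173 by edgeR's quasi-likelihood test), or 1.30 times the vector level. The call was lost without vector replicate 1 (0.36) and without oeRNF112 replicate 3 (0.31). The relatives AMOT and AMOTL1 had log2 fold changes of 0.14 and -0.02 and did not pass the test, although AMOTL1 was at 0.0751 with library totals. AMOT was at -0.0014 without vector replicate 3. In GENCODE v29, the pseudogene RPL39P5 lies on the same strand and shares 187 bases of annotated exon with AMOTL2. How reads in these bases were assigned was not examined.

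CCN2, a secreted matrix protein and the best-known YAP1 target, had 80.2, 94.5 and 107 CPM in vector and 120, 114 and 134 CPM in oeRNF112. The highest vector sample, replicate 3, came near the lowest oeRNF112 sample. The log2 fold change came to 0.39 with a standard error of 0.116 (adjusted p = 0.0454 by edgeR's quasi-likelihood test), close to the threshold. The call held in 11 of the 16 other settings, and it was lost without vector replicate 1, oeRNF112 replicate 1 or oeRNF112 replicate 3, at values of 0.30, 0.40 and 0.32. Its relative CCN1 had 293, 297 and 388 CPM in vector and 368, 363 and 405 CPM in oeRNF112. Vector replicate 3 overlapped the oeRNF112 samples, and the log2 fold change of 0.21 did not pass the test (95% interval -0.05 to 0.48, adjusted p = 0.235). Without vector replicate 3 it was 0.36 with an adjusted p of 0.0375. Whether CCN1 and CCN2 differed in their response was asked through their ratio. CCN2 made up 21.1%, 23.7% and 21.2% of the CCN1 and CCN2 sum per length in vector and 24.2%, 23.5% and 24.4% in oeRNF112, with overlapping samples and p = 0.2 in the two-sided exact permutation test.

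AXL and AJUBA were the 2 targets or regulators with lower TMM-normalized CPM in every oeRNF112 sample, and neither passed the threshold. For AXL the separation was not there in the deposited RPKM. AXL had 493, 529 and 517 CPM in vector and 456, 436 and 469 CPM in oeRNF112, with no overlap but a narrow gap. Its log2 fold change was -0.18 (95% interval -0.36 to 0.0038, adjusted p = 0.159, edgeR's quasi-likelihood test). In RPKM the vector samples had 97.0, 107 and 102 and the oeRNF112 samples 96.8, 90.6 and 101, so that the groups overlapped. With library totals in place of TMM factors the AXL difference was -0.08 (adjusted p = 0.494). AXL held 95.4% ± 0.0684 of the summed RPKM of the TAM receptors AXL, TYRO3 and MERTK in vector and 93.4% ± 0.371 in oeRNF112. MERTK, a much less abundant receptor of that family, was higher with a log2 fold change of 0.61 (adjusted p = 0.00648 in the same test), a call that held in all 17 other settings.

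AJUBA, a LIM-domain protein that binds LATS kinases and inhibits them, had 98.7, 106 and 102 CPM in vector and 88.7, 82.9 and 88.4 CPM in oeRNF112. The log2 fold change was -0.24 (95% interval -0.42 to -0.06), with an unadjusted p of 0.0146 and an adjusted p of 0.0679 by edgeR's quasi-likelihood test. DESeq2 gave an adjusted p of 0.0467 for AJUBA. With library totals the difference was -0.14 (adjusted p = 0.257). Its relatives LIMD1 and WTIP had log2 fold changes of 0.06 and 0.38 and did not pass the test, with LIMD1 at -0.0015 without vector replicate 3 and at -0.0011 without oeRNF112 replicate 3. WTIP passed the test without vector replicate 3 (0.53, adjusted p = 0.0463) and in none of its 15 other settings.

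**Figure D3:**
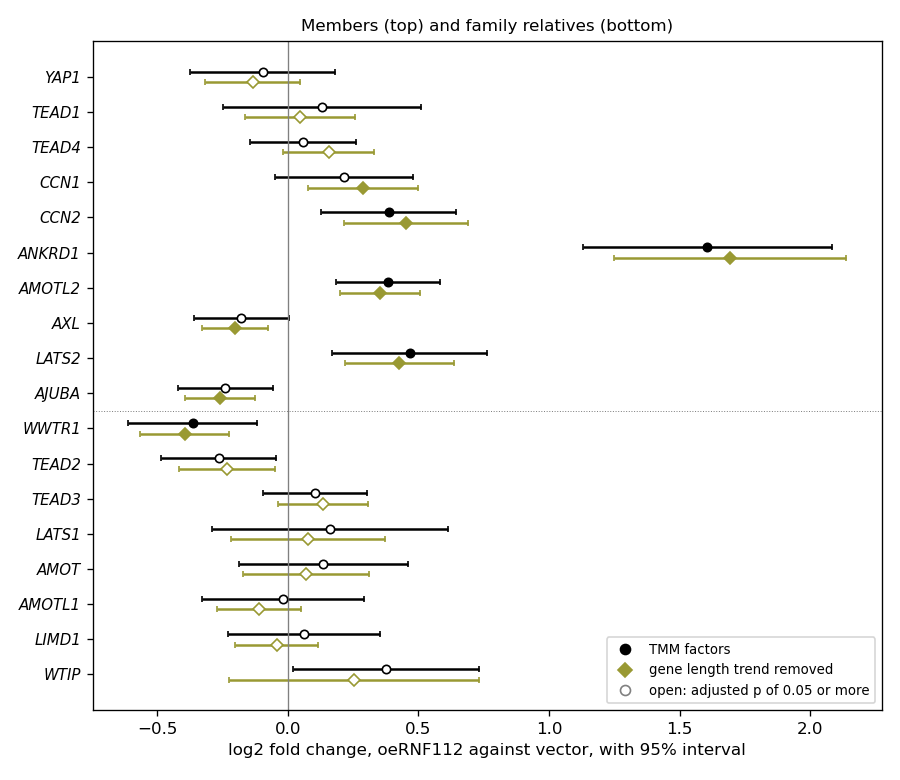
Log2 fold change with its 95% interval for the 10 genes (top) and 8 family relatives (bottom), from edgeR with TMM factors (circles) and with the gene length trend removed (diamonds), filled where the adjusted p was under 0.05. ANKRD1 stands apart at 1.61, the intervals of YAP1, TEAD1 and TEAD4 include 0 in both fits, and CCN1, AXL and AJUBA are filled only after the length trend is removed.

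Samples of the same group differed in their level of long genes, and this touches several of the 10. For the 4090 genes of at least 6000 bases, the median deviation of log2 CPM from each gene's own mean was -0.06, 0.11 and -0.17 in vector and 0.04, -0.06 and 0.16 in oeRNF112. Genes under 2000 bases deviated the other way, by 0.08, -0.09 and 0.21 in vector and -0.06, 0.08 and -0.19 in oeRNF112. YAP1 (6210 bases by the deposited RPKM), TEAD1 (9417 bases) and LATS2 (6121 bases), the 3 members of at least 6000 bases, ordered the samples of each group exactly as the long genes did. Of the members under 2000 bases, ANKRD1 (1790 bases) ordered the samples of each group as the short genes did. TEAD4 (1723 bases) did so in vector only. A fit with a smooth length curve removed from each sample was therefore added after the values had been seen. In this fit TEAD1 was at 0.05 and YAP1 at -0.13, with adjusted p of 0.740 and 0.248, so neither passed the test there either. ANKRD1, CCN2, LATS2 and AMOTL2 remained higher, at 1.69, 0.45, 0.43 and 0.35. CCN1 was then called higher (0.29, adjusted p = 0.0432), and AXL (-0.20, adjusted p = 0.0227) and AJUBA (-0.26, adjusted p = 0.00913) lower, by edgeR's quasi-likelihood test. In all, 4134 genes were called in this fit against 2620, so that more genes passed throughout and not in this pathway alone.

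The rest of the pathway moved in both directions. Of 16 further YAP/TAZ targets of a published signature, all tested, 4 were higher, 2 lower and 10 not called, or 37.5% called against 18.1% of all genes, and their median log2 fold change was 0.09. F3, tissue factor, which starts blood coagulation, had 154, 157 and 157 CPM in vector and 365, 370 and 362 CPM in oeRNF112. The samples within each group differed little, and the log2 fold change came to 1.23 with a standard error of 0.0769 (adjusted p = 2.05e-05 by edgeR's quasi-likelihood test). GADD45A, a growth-arrest and DNA damage gene, was 1.94 times the vector level, with a log2 fold change of 0.96 (adjusted p = 0.00102). FJX1, a secreted four-jointed homologue, fell by 0.71 on the log2 scale (adjusted p = 0.00132), from between 51.9 and 61.1 CPM to between 32.8 and 35.3 CPM. All 3 calls held in the 17 other settings. Of 11 of these targets matched in the promoter table, 4 held GGAATG, and F3 and FJX1 were not among them.

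Of the Hippo kinases and upstream regulators, 34 of 35 were tested, 1 was higher, 3 were lower and 30 were not called, or 11.8% called against 18.1% of all genes. Their median log2 fold change was 0.15. WWC1 (KIBRA), a scaffold that helps to activate LATS kinases, had 58.0, 61.0 and 60.8 CPM in vector and 80.2, 79.6 and 95.3 CPM in oeRNF112, a log2 fold change of 0.50 (adjusted p = 0.00708). NF2 (Merlin), which recruits LATS kinases to the membrane, fell by 0.47 on the log2 scale, from 159, 163 and 173 CPM to 124, 117 and 118 CPM (adjusted p = 0.00431). The core kinase genes STK3, STK4 and LATS1 and the adaptors SAV1, MOB1A and MOB1B did not pass the same test. Of the TEAD partners, 5 of 7 were in the table and tested, with WWTR1 lower and the other 4 not called.

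**Figure D4:**
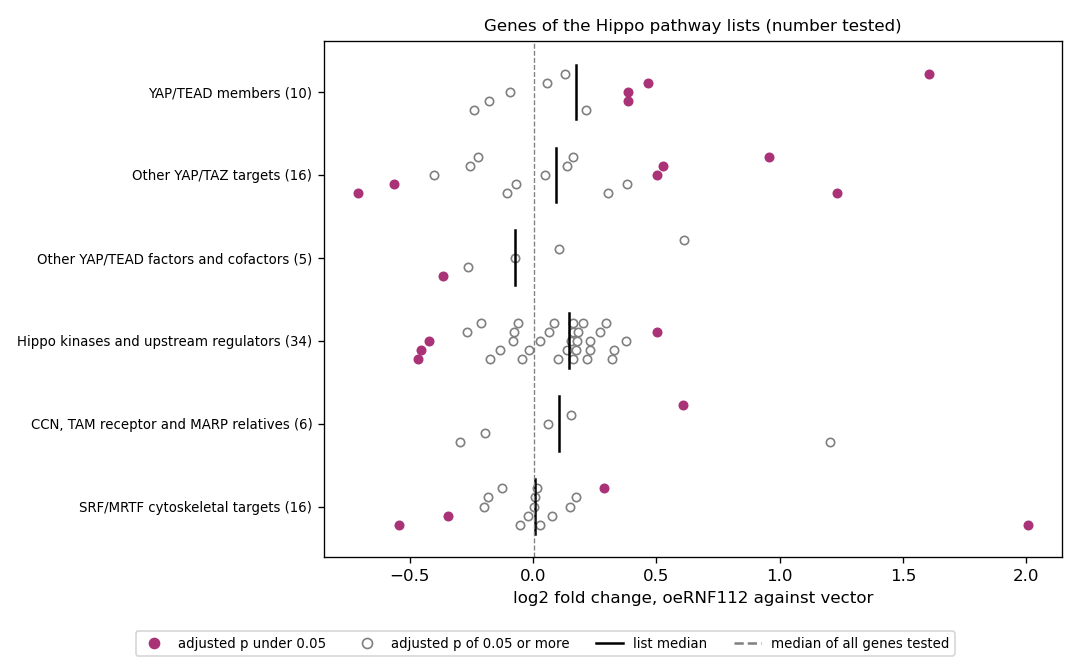
Log2 fold change of every tested gene in each list (rows, with the number tested), filled where the adjusted p was under 0.05, with list medians as bars and the median of all genes tested as a dashed line. The 10 YAP/TEAD genes have 4 filled points, all above 0, whereas the further targets have 4 above and 2 below and the Hippo kinases and upstream regulators 1 above and 3 below.

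**Figure D5:**
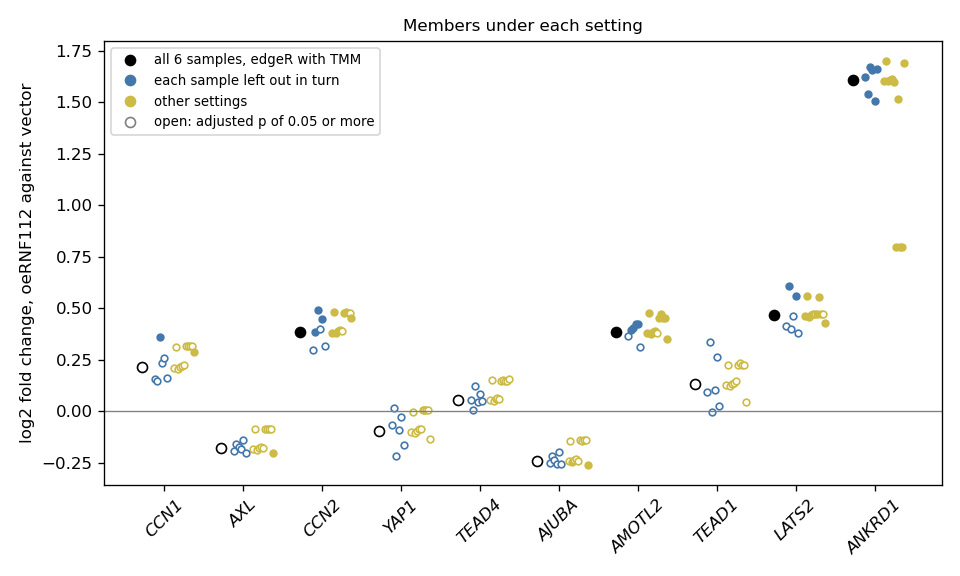
Log2 fold change of the 10 genes with all samples, with each sample left out in turn and in the other settings, filled where the adjusted p was under 0.05. ANKRD1 is filled throughout, between 0.80 and 1.70, YAP1 and TEAD4 are open throughout, and LATS2, CCN2 and AMOTL2 keep a value above 0 while passing the threshold in 10, 11 and 13 of the 16 other settings, the length trend aside.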

How the data were processed

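The deposited counts are reads per gene in 6 T24 samples, without normalization by the authors, and the deposited RPKM scale these by gene length and column total: for 20637 of 20637 genes compared, 1 length explained all samples within a relative tolerance of 0.001. The submitters' processing notes name Trimmomatic 0.36, featureCounts of Subread 1.5.1 and GRCh38; the aligner, annotation and strand setting are not given in the sources used here.

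Counts were fitted with edgeR 4.0.16 (R 4.3.3) with its low-count filter, TMM factors and quasi-likelihood test, without covariates, and adjusted over all genes; standard errors are the log2 fold change divided by the root of its F value. DESeq2 1.42.0 and limma 3.58.1 on log2(RPKM + 1 or 0.1) were alternatives, and the scripts were tested on simulated data. The genes and lists were chosen with earlier results of these data known. Named genes are the 10 members, their family relatives and up to 3 called genes with the smallest p in each list. One gene that this rule names is not reported here. The core kinases and adaptors were named without values after their results were seen. The study names no test for these counts. Shares were compared by exact permutation, and promoter windows came from RefSeq (GRCh38.p14). VGLL1, VGLL2, CCN6 and KRT5 were not analysed here.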

Additional observations from a re-analysis of the deposited data

How the results depend on the processing

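Deviations from the group means correlated at -0.10, -0.32 and -0.26 over the genes tested between samples sharing a replicate number. No sample correlated best with its own number. Centring within groups of 3 ties these values to one another, so they cannot show whether same-numbered samples were prepared together. The highest, 0.32, was between vector replicate 2 and oeRNF112 replicate 3, the samples of each group with the highest level of long genes. With the replicate block, 876 genes were called, 618 higher and 258 lower, of which 1 was a member (ANKRD1, higher). Of the further targets 3 were called there, of the Hippo kinases and upstream regulators, and of the TEAD partners, 0 each, and of the SRF/MRTF list 1. When each sample was left out, calls ranged from 1061 to 3387 (702 to 1841 higher, 359 to 1546 lower), lowest without vector replicate 1 and highest without vector replicate 2. Members called higher ranged from 1 to 4, further targets from 4 to 7, Hippo regulators from 3 to 6, TEAD partners from 0 to 1, the CCN, TAM receptor and MARP relatives from 1 to 2 and the SRF/MRTF list from 0 to 3.

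With library totals, 659 genes were lower and 0 TEAD partners were called. The limma fits gave 669, 682, 603 (mean RPKM of at least 1) and 424 (no filter) lower genes and 0 TEAD partners each, and without a filter 2 members were higher and 2 Hippo regulators called. DESeq2 called 1 member lower (AJUBA), 2 TEAD partners and 2 relatives. Without a filter on counts 2 TEAD partners were called, and with at least 10 counts in every sample 0, with 2 genes of the SRF/MRTF list. With the length trend removed, which was chosen after seeing the data, 4134 genes were called, 2002 of them lower, with 2 members lower, 2 TEAD partners, 7 Hippo regulators and 2 relatives.

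YAP1 was above 0 without vector replicate 2 (0.0163) and with limma (0.0078, and 0.0084 with a pseudocount of 0.1), and left-out samples gave -0.22 to 0.0163. TEAD1 (-0.0047 to 0.34), AMOT (-0.0014 to 0.28), LATS1 (-0.0130 to 0.36) and LIMD1 (-0.0015 to 0.21) fell below 0 in some of these fits, and LIMD1 also with the length trend removed (-0.0429). AMOTL1 ranged from -0.14 to 0.10 when samples were left out and was at 0.0751 with library totals and at 0.0741 and 0.0815 with limma. None of these was called in any of these fits, and the cause of the changes was not tested. Scaling RPKM by the TMM factors moved no member's level by more than the spread between samples. The precision is limited by 3 samples per group, and for ANKRD1 by its low counts.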

Other observations

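The SRF and MRTF factors respond to actin and act on some of the same targets as YAP1, and their cytoskeletal targets were counted as a further list. Of 16 genes tested in this list of 17, 2 were higher, 2 were lower and 12 were not called by edgeR's quasi-likelihood test (25% called, against 18.1% of all genes), with a median log2 fold change of 0.0066. CNN1 (calponin) was higher on small counts, with 3, 5 and 14 in vector and 31, 31 and 33 in oeRNF112. FHL1 had a log2 fold change of 0.29 (adjusted p = 0.0348), while ACTA2, smooth-muscle actin, fell by 0.55 on the log2 scale (adjusted p = 0.0233). Without vector replicate 1 none of these 3 calls held in the same test (adjusted p of 0.0752, 0.0917 and 0.0864 for CNN1, FHL1 and ACTA2). FHL1 was also lost without each other sample, CNN1 without oeRNF112 replicate 1 or 3 and ACTA2 without vector replicate 3 or oeRNF112 replicate 1 or 3.

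For each of the 10 genes, the most similar of the 106 other tested genes in the lists was found by the mean absolute difference of log2 CPM over the 6 samples, each gene centred on its own mean. LATS2 was nearest to DOCK5, a further YAP/TAZ target, at a mean difference of 0.0333, and ANKRD1 was nearest to F3 at 0.180, against a median of 0.269 and 0.767 over the other genes. CCN2 was nearest to AMOTL2 at 0.0702, and TEAD4 to TEAD3 at 0.0403. YAP1 was nearest to STRN3, a phosphatase subunit, at 0.0261. The nearest gene lies below the median because it was picked as the smallest distance, and the distances include the difference between the groups. These distances describe 6 samples and carry no test.

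Among the cell type markers, read against the 18.1% called over all genes, 3 of 8 epithelial genes tested were called, 1 higher and 2 lower: the keratins KRT18 and KRT7 fell by 0.51 and 0.48 on the log2 scale, and EPCAM was higher by 0.84. The KRT7 call was lost in 9 of 17 other settings, among them those without vector replicate 1 or 3 or oeRNF112 replicate 1 or 3. The calls of KRT18 (without vector replicate 1 or oeRNF112 replicate 1) and EPCAM (without vector replicate 1 or oeRNF112 replicate 2 or 3) were lost in 4 each. Of the 5 mesenchymal genes, SNAI2 was higher by 0.54, which held in all 17 other settings. CDH2 fell by 0.44, a call lost in 9 of 17, with library totals (adjusted p = 0.0817) and without vector replicate 1 or oeRNF112 replicate 1 or 2 among them. One of 3 fibroblast genes, PDGFRA, was higher on small counts (1, 3 and 8 in vector, 19, 29 and 19 in oeRNF112), and LAPTM5 alone of 4 leukocyte genes was called and fell by 0.88. The PDGFRA call was lost in 3 of 15 other settings (without vector replicate 1 among them) and that of LAPTM5 in 6 of 17, among them library totals and those without vector replicate 1 or 3 or oeRNF112 replicate 2 or 3. No endothelial gene passed the filter on low counts. The part of these markers in the YAP/TEAD results was not tested.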
